A study of Mus musculus with 20 samples.

Results

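The C-type lectin genes with Clec symbols were represented by 40 probes for 32 genes among the 39429 non-control probes and 31093 gene names of the mouse array, chosen by the gene name that the array files give each probe. A single probe was printed for 25 of the genes, 2 for 6 genes and 3 for Clec1b. The signals were read in whole blood of male mice, 24 h after 7 Gy of X-rays or sham irradiation, on 20 single-colour arrays with 5 samples in each of 4 groups. The groups were wild-type C57BL/6 littermates at 0 Gy and at 7 Gy (WT 0 Gy and WT 7 Gy) and mice homozygous for the Il10 tm1Cgn allele, a germline knockout of interleukin 10, at the same doses (Il10-/- 0 Gy and Il10-/- 7 Gy). All mice were bred from heterozygous parents, so that the groups were littermates. The blood was taken by cardiac puncture into a lysis solution, so every blood cell contributed RNA, and globin transcripts were depleted. Il10-/- mice carry the allele in every cell type and are a model of inflammatory bowel disease.

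C-type lectin receptors are membrane proteins with a calcium-dependent or calcium-independent sugar-binding fold, carried by monocytes, macrophages, dendritic cells, neutrophils and platelets. The activating members signal through the kinase Syk, either by a motif of their own or through the adaptor Fcer1g. Among them are dectin-1 (Clec7a), dectin-2 (Clec4n), Mincle (Clec4e) and CLEC-2 (Clec1b). Some members of the Dcir group, but not all, recruit phosphatases. Several members of the Clec2 subfamily work the other way round, as ligands that the Klrb1 receptors of natural killer cells read on neighbouring cells.

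Most of the genes are neighbours. The probes of 24 of the 32 genes mapped to chromosome 6, with 9 genes between 122884578 and 123232937 of the mm9 build (the Dcir, dectin-2 and Mincle genes) and 12 genes between 128626525 and 129411798 (the Clec2, Clec12, CLEC-2 and dectin-1 genes). The positions are those of the array files, and whether a probe lies in an exon or an untranslated part was not determined here. Upstream sequence is shown for Clec4d and Clec4e, which lie side by side in the first cluster and encode receptors that pair with each other, and for Clec7a of the second cluster, since their signals are given on every array where the genotype labels are compared, in which Clec4e alone was called. Each line holds the 250 bases before the annotated start, 5′ to 3′ on the strand of the gene, from RefSeq on build GRCm38.p6, with the ETS-factor core GAGGAA in capitals on either strand (TTCCTC on the other strand). Clec4d lies on the plus strand (chr6:123261857-123262106), and Clec4e (chr6:123289872-123290121) and Clec7a (chr6:129472780-129473029) on the minus strand.
Clec4d: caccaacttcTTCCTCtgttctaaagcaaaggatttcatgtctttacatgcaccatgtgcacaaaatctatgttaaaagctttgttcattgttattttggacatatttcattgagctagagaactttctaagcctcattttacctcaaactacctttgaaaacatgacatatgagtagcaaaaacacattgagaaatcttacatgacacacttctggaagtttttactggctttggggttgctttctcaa
Clec4e: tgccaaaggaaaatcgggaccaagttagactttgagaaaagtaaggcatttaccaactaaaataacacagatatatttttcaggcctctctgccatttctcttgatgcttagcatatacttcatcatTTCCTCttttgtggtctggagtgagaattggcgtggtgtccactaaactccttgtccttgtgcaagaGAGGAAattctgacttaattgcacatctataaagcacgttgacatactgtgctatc
Clec7a: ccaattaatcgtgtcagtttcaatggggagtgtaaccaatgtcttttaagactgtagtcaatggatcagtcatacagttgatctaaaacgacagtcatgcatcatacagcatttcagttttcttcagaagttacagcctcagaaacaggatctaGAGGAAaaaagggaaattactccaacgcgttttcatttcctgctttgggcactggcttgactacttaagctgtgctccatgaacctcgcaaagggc

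The core GAGGAA was found 2 times before Clec4e and 1 time each before Clec4d and Clec7a. It was present in 23.3% of all 32851 windows of the same length and in 13 of the 25 Clec genes matched in the promoter table. The C/EBP-type sequence TTGCNNAA was present in 4 of these genes, Clec4e among them, and in 9.56% of all windows. The GATA-type sequence AGATAA was in 0 Clec windows against 9.99% of all windows. Every sequence was searched on both strands, and these matches describe letters, not binding.

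Before the members were compared, the Il10 probe was read, because it bears on the labels. Its signal, given here and throughout as log2 of the background-corrected intensity minus the median of the array, was 2.75 ± 0.31 (SD, n = 5) in Il10-/- 0 Gy and 2.71 ± 0.62 (SD, n = 5) in Il10-/- 7 Gy, well above background on 5 of 5 and 5 of 5 arrays. In WT 0 Gy and WT 7 Gy it was -1.54 ± 0.45 and -1.85 ± 0.61 (SD, n = 5 each), well above background on 0 arrays. Against these groups the signal was at least 7.12-fold higher at 0 Gy and at least 8-fold higher at 7 Gy, taking as a bound the lowest signal that was well above background on each array. The transcript that the allele targets was thus higher under the knockout label, and whether the probe lies outside the altered part of the gene was not established, so genotypes are named below by their labels. The arrays lay on 5 slides with 1 array of each group, and each slide was 1 scan and 1 replicate number. On WT 0 Gy replicate 5 and Il10-/- 7 Gy replicate 3 only 29.9% and 34.6% of spots were well above background, and repeated spots of a probe spread by a median SD of 0.89 and 0.41. On the other 18 arrays these values were 38.5% to 57.8% and 0.14 to 0.24. Replicates 1 and 2 of every group were more alike than any other pair, with a robust SD of their log2 differences of 0.18 to 0.27 against 0.29 to 1.26. Whether they came from separate mice was not established, so p-values measure the spread between samples, which may be partly technical. Averaging the pair lowered the calls over all probes from 1263 to 754 in the WT response and from 1702 to 815 in the Il10-/- response. It also leaves fewer values per group. With 1 array left out, these calls ran from 863 to 1573 and from 1133 to 1535. The part of the likeness of the pair in the drop was not tested.

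Part of the family gave signal in blood. In all, 11 probes of 9 genes were well above background on all 20 arrays: the activating receptors Clec4d, Clec4e, Clec4n, Clec7a and Clec1b (3 probes), the Dcir members Clec4a1 and Clec4a3, the killer-cell ligand Clec2i, and the sinusoidal receptor Clec4g. A further 13 probes were well above background on no array, and every probe of 9 genes was among them. These genes were the inhibitory receptor Clec12a, the endothelial Clec1a, Clec3a, the Dcir members Clec4a2 and Clec4a4, Clec4b2, Clec2f, Clec2g and Clec2l. The remaining 16 probes were measured on some arrays. Clec5a, an activating receptor of monocytes, was well above background on 1 array, and its values and those of the undetected genes are not read as levels. A probe without signal does not show that its transcript was absent: the 2 probes of Clec18a were well above background on 17 and 0 arrays. Clec2h was well above background on 2 arrays, replicates 1 and 2 of WT 7 Gy, at 1.49 and 1.62. After the filters on background and on change, 20 probes of 17 genes were tested, and Clec2d and Clec4n passed on background but varied by less than 1.5-fold on too many arrays. No Clec spot was saturated.

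**Figure D1:**
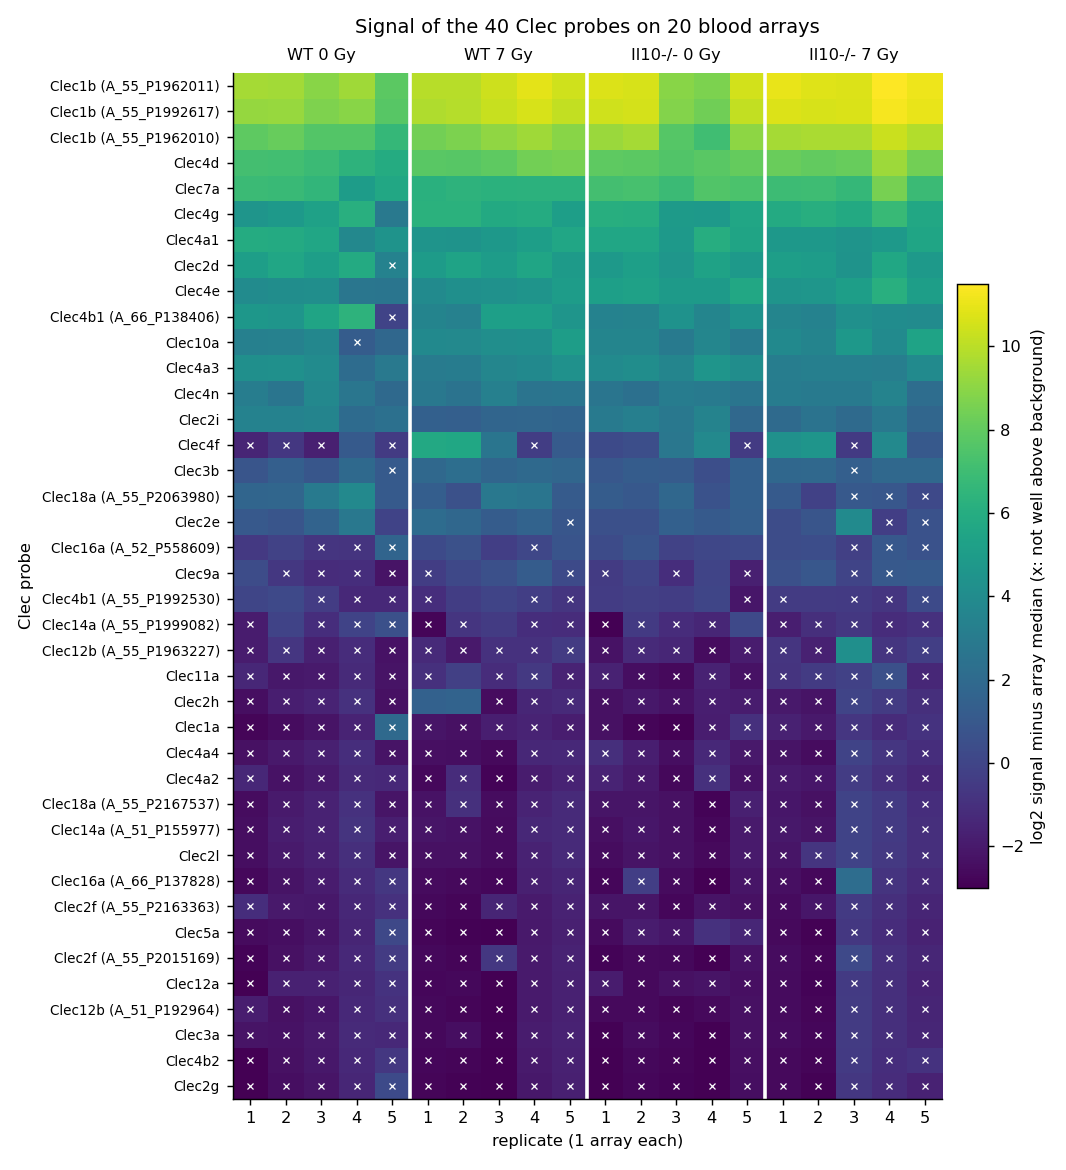
Heat map of the 40 Clec probes (rows, ordered by mean signal) on the 20 arrays (columns, 5 replicates in each of the groups WT 0 Gy, WT 7 Gy, Il10-/- 0 Gy and Il10-/- 7 Gy). The colour is the log2 signal minus the array median, and a white cross marks an array on which the probe was not well above background. Crosses fill the lower rows and are absent from the 11 probes measured on all 20 arrays, while Clec4f changes colour between arrays of the same group. Colours compare arrays within a row, since probes differ in how strongly they bind.

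The first question was how the receptors of the mice labelled WT responded to radiation. In WT 7 Gy blood, 5 probes were higher than in WT 0 Gy at a 5% false discovery rate: Clec4d, Clec10a and 2 of the 3 probes of Clec1b, by 2.44-fold to 2.9-fold, and Clec4f, which was well above background on 1 of 5 WT 0 Gy arrays. The probe of Clec2i was 2.58-fold lower and passed the same rate. In the limma fit, 0 of the 20 probes met the stricter rule of the study, p below 0.001 with a false discovery rate under 10%, which 6.8% of the 18587 probes tested met. At the 5% rate alone, 6 of the 20 passed, against 14.6% of all probes tested. The count at an unadjusted p below 0.05 was 9 of the 20, with the 3 Clec1b probes in it, and 29.1% of all probes. The median difference of the 20 probes was 0.57 on the log2 scale and that of all probes tested was -0.02. Of the 20, 17 were above 0, the 3 Clec1b probes among them, against 49.1% of all probes tested. Each of the 6 probes kept its direction under every alternative tried. With single arrays left out, 10 fits in all, the 5% rate was still met in 8 fits for Clec4f, in 5 for Clec4d, in 5 and 2 for the Clec1b probes, in 3 for Clec2i and in 2 for Clec10a. None of these fits turned a direction.

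Among the activating receptors, Clec1b, the platelet receptor for podoplanin, had 3 probes that lie between 129350113 and 129355345 of chromosome 6 (mm9). On probe A_55_P1962011 the log2 signal in replicates 1 to 5 was 9.53, 9.49, 8.93, 9.42 and 7.82 in WT 0 Gy and 9.93, 9.94, 10.37, 10.93 and 10.44 in WT 7 Gy. Every irradiated array lay above every unirradiated one, and replicate 5 of WT 0 Gy was the lowest. The difference was 1.28 (SE 0.42, limma adjusted p = 0.05), just above the 5% limit before rounding, so this probe did not pass the rate. The other probes of the gene differed by 1.39 (SE 0.40, adjusted p = 0.0278) and 1.28 (SE 0.39, adjusted p = 0.0368). After normexp background correction, which moved the median of all probes tested from -0.02 to 0.65, the latter value was 1.97 (adjusted p = 0.0706). The list of 10 other platelet genes, among them Pf4, Itga2b and Gp9, all well above background on every array, moved beside the Clec1b probes: the mean of the list was 6.59 to 8.11 in WT 0 Gy and 8.30 to 9.41 in WT 7 Gy, and 6 of the 10 passed the 5% rate upwards. The part of the platelet list in the Clec1b values was not tested. Throughout, in whole blood, fewer cells of a type and less RNA per cell cannot be told apart.

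Clec4d, which encodes the C-type lectin MCL, was probed on chromosome 6 of mm9 from 123224788 to 123224847. Its log2 signal was 7.17, 7.14, 6.88, 6.38 and 5.91 in replicates 1 to 5 of WT 0 Gy and 7.78, 7.71, 7.89, 8.39 and 8.51 in WT 7 Gy. The groups did not overlap, and the difference was 1.36 (SE 0.39, 95% interval 0.54 to 2.18, limma adjusted p = 0.0272), a 2.57-fold higher signal. The neighbouring Clec4e, which encodes Mincle, a receptor of mycobacterial cord factor, differed by 0.87 (SE 0.43, adjusted p = 0.196) in the same comparison, with groups that overlapped. Clec7a, the beta-glucan receptor dectin-1, differed by 0.09 (95% interval -0.80 to 0.97), with WT 7 Gy arrays at 6.18 to 6.38 inside the WT 0 Gy range of 5.01 to 6.91. Clec4n, which encodes dectin-2, differed by -0.10 (95% interval -0.91 to 0.72) when the filter on change was lifted.

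Clec9a encodes DNGR-1, a receptor of cross-presenting dendritic cells for the actin of dead cells. It was well above background on 1 of 5 WT 0 Gy arrays and on 3 of 5 WT 7 Gy arrays. Its signal differed by 1.32 (SE 0.48, limma adjusted p = 0.0758) between these groups, which overlapped. Of 7 dendritic cell genes, Xcr1, which marks the same cells, was well above background on no array, and the mean of the list was 2.42 to 3.87 in WT 0 Gy and 2.49 to 3.40 in WT 7 Gy.

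Among the glycan-binding receptors of macrophages and liver, Clec4f varied widely within groups. This gene, the galactose-binding receptor of Kupffer cells in mice (probe on chromosome 6 of mm9 from 83595281 to 83595339), had log2 signals of -1.51, -0.64, -1.71, 1.11 and -0.50 in replicates 1 to 5 of WT 0 Gy and 5.74, 5.62, 2.66, -0.39 and 1.18 in WT 7 Gy. It was well above background on 1 WT 0 Gy array and on 4 WT 7 Gy arrays, and replicates 1 and 2 of WT 7 Gy stood far above the rest. The difference was 3.61 (SE 0.98, 95% interval 1.54 to 5.68, limma adjusted p = 0.022), and the groups overlapped. With replicates 1 and 2 of each group averaged into 1 value, it was 2.82 (adjusted p = 0.0737), and after normexp background correction 1.71 (adjusted p = 0.112). With single arrays left out the difference ran from 2.92 to 4.45. With the slide as a block it met the rule of the study (limma adjusted p = 0.0097), and within slides it ran from -1.50 to 7.25, above 0 on 4 of 5.

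The 14 hepatocyte genes, which include Alb and Apoa1, moved with Clec4f from array to array. The mean of the list was 0.17 to 1.78 in WT 0 Gy and 2.54 to 10.67 in WT 7 Gy, where replicates 1 and 2 were at 10.63 and 10.67 and replicate 4, in which Clec4f was not well above background, was lowest. Of the 12 hepatocyte genes tested in this comparison, 7 were called higher. Apoa1 and Cyp3a11 were well above background on 0 WT 0 Gy arrays and on 4 WT 7 Gy arrays each. Ahsg, Apoa2, Cyp2e1, Fgb and Tat were well above background on all 5 arrays of both groups. The 7 tissue macrophage genes, such as Vsig4 and Cd5l, were all called higher in WT 7 Gy, with list means of 1.33 to 5.20 and 7.72 to 9.01 in the unirradiated and irradiated groups. The part of liver RNA or of macrophages in the Clec4f signal was not tested.

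Clec10a, the macrophage galactose-type lectin (probe on chromosome 11 of mm9 from 69984254 to 69984313), had signals of 3.32, 3.36, 3.71, 1.23 and 1.86 in WT 0 Gy and 3.87, 3.85, 4.15, 4.22 and 5.05 in WT 7 Gy. Replicates 4 and 5 of WT 0 Gy were far below the other 3, replicate 4 was not well above background, and the groups did not overlap. The difference was 1.53 (SE 0.50, limma adjusted p = 0.0484), and without replicate 4 of WT 0 Gy it was 1.17 (adjusted p = 0.108). The monocyte list, 11 genes with Csf1r and Ccr2 among them, was at 3.46 and 3.06 on those 2 arrays and at 4.73 to 4.90 on the other 3. Clec4g, the lectin of liver and lymph node sinusoids, differed by 1.13 (SE 0.52, adjusted p = 0.162).

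In the Clec2 subfamily, Clec2i, a ligand of the killer-cell receptor Klrb1f, was lower after irradiation. Its signal was 3.45, 3.45, 3.55, 2.06 and 2.34 in replicates 1 to 5 of WT 0 Gy and 1.46, 1.39, 1.73, 1.79 and 1.65 in WT 7 Gy, with every irradiated array below every unirradiated one. The difference was -1.37 (SE 0.40, 95% interval -2.21 to -0.52, limma adjusted p = 0.0307). It met the rule of the study, with a difference of -1.52 and an adjusted p of 0.0108, once the noisy replicate 5 of WT 0 Gy was left out. After normexp background correction the difference was -0.38 (adjusted p = 0.464), where the median of all probes tested was 0.65. Clec2d, the ligand of Klrb1b, differed by 0.11 (95% interval -0.81 to 1.04) without the filter on change, and Clec2e by 0.29 (95% interval -0.75 to 1.33). Lymphocyte markers also differed between these groups: 6 of 7 B cell genes tested were called lower, and 2 of 7 T cell genes, and their part in the Clec2i value was not tested.

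**Figure D2:**
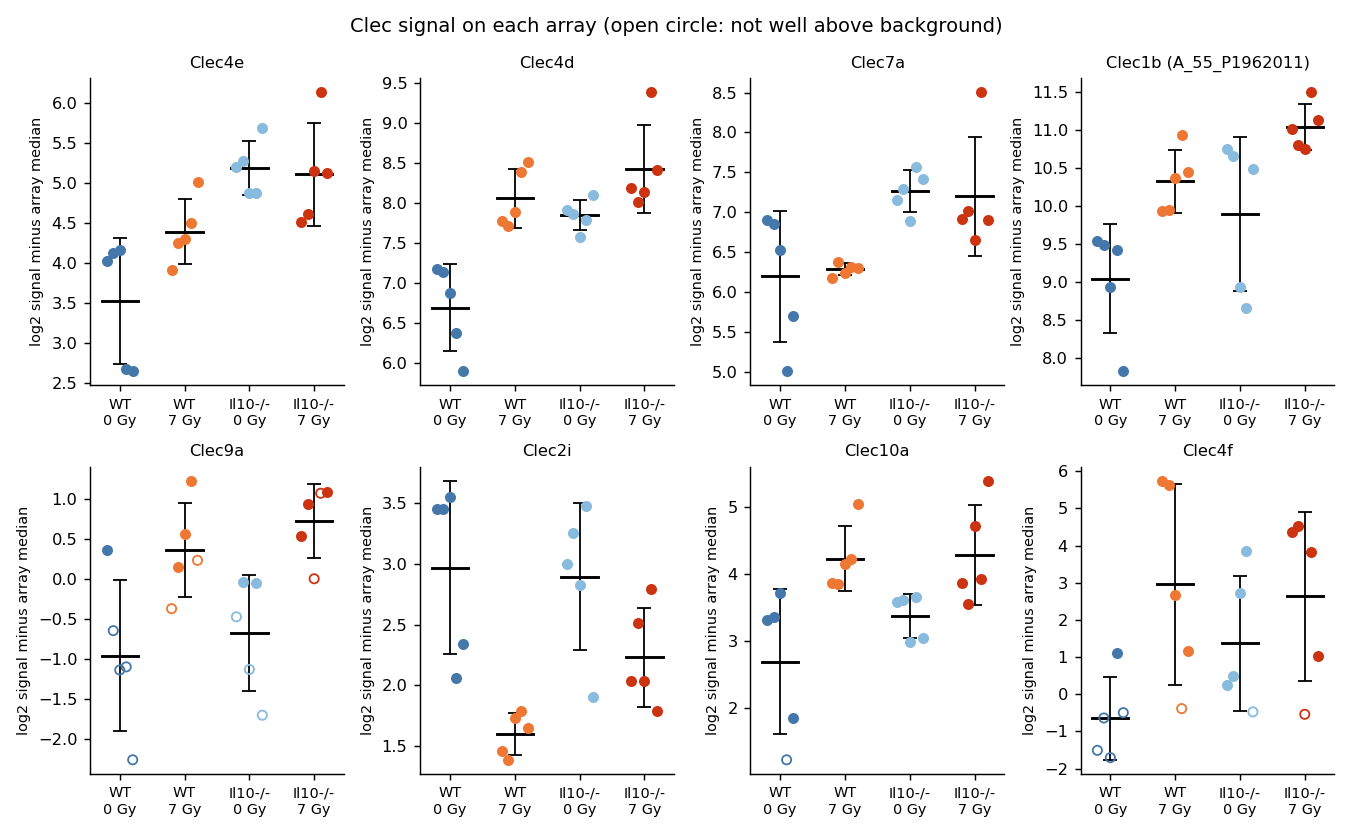
Log2 signal minus the array median (vertical axis) of 8 Clec probes on every array, in the groups WT 0 Gy, WT 7 Gy, Il10-/- 0 Gy and Il10-/- 7 Gy (5 points each, replicates 1 to 5 from left to right). Horizontal lines are group means, bars are SDs, and open circles mark arrays on which the probe was not well above background. The WT 7 Gy arrays of Clec4d, Clec1b and Clec10a lie above all WT 0 Gy arrays and those of Clec2i below them, and Clec4e is higher on all 5 Il10-/- 0 Gy arrays than on any WT 0 Gy array.

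The same contrast in the mice labelled Il10-/- gave fewer members past the 5% rate. Clec9a and Clec3b passed it, both higher after 7 Gy. In the limma fit, 0 of the 20 probes met the rule of the study, against 9.16% of all probes tested, and 2 of 20 passed the 5% rate alone, against 21.8%. At an unadjusted p below 0.05 there were 9 of the 20, with every Clec1b probe among them, and 35.5% of all probes. The median difference was 0.39 over the members and -0.10 over all probes tested.

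Clec9a (probe on chromosome 6 of mm9 from 129372492 to 129372551) had signals of -0.47, -0.04, -1.13, -0.05 and -1.70 in replicates 1 to 5 of Il10-/- 0 Gy and 0.54, 0.93, 0.00, 1.07 and 1.08 in Il10-/- 7 Gy. Every irradiated array was above every unirradiated one, the closest pair being 0.00 and -0.04, with a signal well above background on 2 and 3 of the 5 arrays. The difference was 1.40 (SE 0.36, limma adjusted p = 0.0165), a 2.65-fold higher signal, and it met the rule of the study without the noisy replicate 3 of Il10-/- 7 Gy (1.59, adjusted p = 0.0105). The size of this difference rests on signals near background. The dendritic cell list was at 3.35 to 3.63 in Il10-/- 0 Gy and 2.79 to 3.49 in Il10-/- 7 Gy, with 1 of the 6 genes tested called lower. Its part in the Clec9a value was not tested. Clec3b encodes tetranectin, a secreted protein that binds plasminogen. Its signal was 0.92, 1.23, 1.14, 0.51 and 1.43 in Il10-/- 0 Gy and 1.83, 1.92, 1.37, 1.92 and 1.88 in Il10-/- 7 Gy, with replicate 3 of the irradiated group apart from the other 4 and below the highest unirradiated array. The difference was 0.74 (SE 0.23, adjusted p = 0.042), and the 5% rate was met in 2 of the 10 fits that leave out 1 array, against 10 of 10 for Clec9a. Other lists moved with it: 4 of 4 fibroblast genes and 5 of 7 heart muscle genes tested were called higher in this comparison. The fibroblast list was at -0.29 to 0.84 and 2.19 to 2.93 in the unirradiated and irradiated groups, and the heart muscle list, with Myl2 and Myl3 in it, at -0.74 to 2.41 and 1.23 to 6.07. Their part in the Clec3b value was not tested. The Clec3b difference in WT mice was 0.70 (SE 0.36, adjusted p = 0.218).

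The Clec1b probes differed by 1.14 to 1.28 between the Il10-/- groups, with adjusted p-values of 0.0573 to 0.071. On probe A_55_P1962011 the signals were 10.74, 10.65, 8.93, 8.66 and 10.48 in Il10-/- 0 Gy and 11.01, 10.80, 10.74, 11.49 and 11.13 in Il10-/- 7 Gy, and replicates 3 and 4 of the unirradiated group lay well below the other 3. The platelet list was at 7.37 and 6.92 on those 2 arrays and at 9.31 to 9.73 on the other 3. Clec4d differed by 0.58 (SE 0.28, adjusted p = 0.155), Clec4e by -0.08 (95% interval -0.77 to 0.61) and Clec7a by -0.07 (95% interval -0.79 to 0.66). Clec4f ranged from -0.48 to 3.84 in Il10-/- 0 Gy and from -0.54 to 4.54 in Il10-/- 7 Gy, and its difference of 1.28 had an interval of -1.04 to 3.59. Both of the Dcir members measured were on the lower side: Clec4a3 differed by -0.70 (SE 0.25, adjusted p = 0.0613) and Clec4a1 by -0.62 (SE 0.28, adjusted p = 0.139), and neither passed the 5% rate. Under the label WT these values were 0.10 and -0.24. Clec10a differed by 0.91 (SE 0.34, limma adjusted p = 0.0784) between the Il10-/- groups, which overlapped. The mean of Clec2i was 2.89 in Il10-/- 0 Gy and 2.23 in Il10-/- 7 Gy. Neither Clec10a nor Clec2i passed the 5% rate under this label, and each lay on the same side as under WT. Clec12b, an inhibitory receptor, rested on 1 array: its second probe read 4.22 on the noisy replicate 3 of Il10-/- 7 Gy and was well above background nowhere else.

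The responses of the 2 labels were then compared directly, as an interaction over all 20 arrays. In limma, 0 of the 20 members met the rule of the study, as did 0% of all probes tested, and 0 members and 1301 probes had an unadjusted p below 0.05. The difference between the responses (Il10-/- minus WT) was -0.94 (95% interval -2.04 to 0.15) for Clec4e and -0.78 (95% interval -1.71 to 0.15) for Clec4d. It was 0.71 (95% interval -0.32 to 1.73) for Clec2i and -2.33 (95% interval -5.60 to 0.94) for Clec4f. These intervals hold 0 and also differences of more than 1 in size, so a member that passed the 5% rate under 1 label alone was not shown to respond differently under the other. The median over members was -0.17 and over all probes -0.20.

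**Figure D3:**
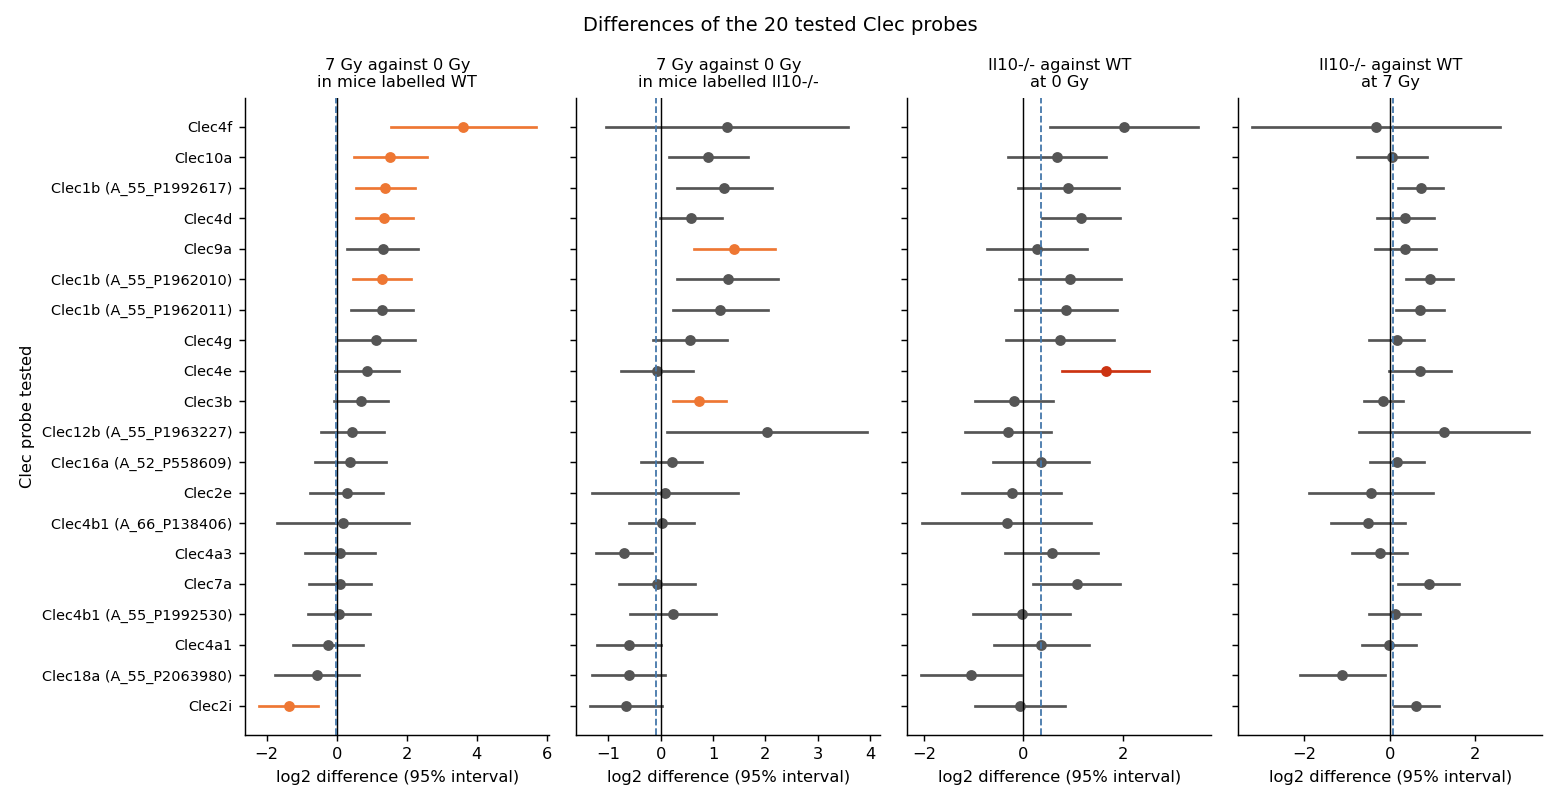
Log2 differences (horizontal axis) of the 20 tested Clec probes (vertical axis) with 95% intervals from limma, in 4 panels: 7 Gy against 0 Gy in the mice labelled WT and in those labelled Il10-/-, and Il10-/- against WT at 0 Gy and at 7 Gy. Red marks a probe that met the rule of the study, orange a probe that passed a 5% false discovery rate alone, and grey the others. The dashed line is the median of all 18587 probes tested, and Clec4e at 0 Gy is the red point.

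The second question was whether the labels differed without radiation. Clec4e, the Mincle gene, was higher in Il10-/- 0 Gy than in WT 0 Gy and was the member that met the rule of the study, 1 of 20 against 0.845% of all probes tested. At the 5% rate alone no member passed, against 0.409% of all probes. Its signals were 4.02, 4.13, 4.17, 2.68 and 2.65 in replicates 1 to 5 of WT 0 Gy and 5.21, 5.28, 4.88, 4.88 and 5.70 in Il10-/- 0 Gy. The groups did not overlap, and replicates 4 and 5 of WT 0 Gy were the lowest of all 20 arrays. The difference was 1.66 (SE 0.42, 95% interval 0.78 to 2.53), a 3.15-fold higher signal, with a limma p of 0.000841 and an adjusted p of 0.0996, at the edge of the 10% limit.

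This call was not stable. Of 22 alternatives, 3 kept it and 19 lost it, with differences from 1.08 to 1.82 and adjusted p-values up to 0.708. Without replicate 4 of WT 0 Gy the difference was 1.44 (adjusted p = 0.265) and without replicate 5 it was 1.44 (adjusted p = 0.144). The median of all probes tested was 0.36 higher in Il10-/- 0 Gy with arrays scaled to their median, and -0.07 to 0.11 under the other scalings. The median over members was 0.47, and 5 of the 20 had an unadjusted p below 0.05 against 16.1% of all probes. The neutrophil list, 8 genes with S100a8 and Retnlg among them, moved with Clec4e between these groups: its mean was 5.61 to 7.11 in WT 0 Gy and 7.52 to 9.25 in Il10-/- 0 Gy, with 5.64 and 5.61 in replicates 4 and 5 of WT 0 Gy, and 4 of 8 genes tested were called higher. After irradiation the list median went from 6.69 to 5.95 under WT, where the Clec4e mean went from 3.53 to 4.40. Under Il10-/- the list median went from 8.71 to 7.21, with Clec4e means of 5.19 and 5.11. The part of neutrophils in the Clec4e difference was not tested.

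Clec4d, Clec7a and Clec1b were on the same side without passing. Clec4d was at 7.17, 7.14, 6.88, 6.38 and 5.91 in WT 0 Gy and 7.92, 7.87, 7.57, 7.79 and 8.09 in Il10-/- 0 Gy, groups that did not overlap, and differed by 1.15 (SE 0.37, limma adjusted p = 0.214). Clec7a was at 6.91, 6.86, 6.52, 5.01 and 5.70 in WT 0 Gy against 7.16, 7.29, 6.89, 7.57 and 7.42 in Il10-/- 0 Gy, which overlapped, and differed by 1.07 (SE 0.42, adjusted p = 0.255). The Clec1b probes differed by 0.85 to 0.94, with adjusted p-values of 0.331 to 0.354, and Clec4n by -0.11 (95% interval -0.90 to 0.68) without the filter on change. Clec4f differed by 2.02 (SE 0.71, adjusted p = 0.222), and with the slide as a block it met the rule of the study (adjusted p = 0.0128), with differences of 0.02 to 4.43 within the 5 slides. It stood highest on replicates 3 and 4 of Il10-/- 0 Gy, at 2.72 and 3.84, where the hepatocyte list was at 7.78 and 8.98 against at most 2.00 on the other 3 arrays of the group. Clec18a was on the lower side, by -1.05 (SE 0.48, adjusted p = 0.301).

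At 7 Gy, 0 of the 20 members met the rule of the study in limma, where 0.00538% of all probes did. At the 5% rate 0 members passed, against 0.00538% of all probes. An unadjusted p below 0.05 was reached by 6 members, against 11.1% of all probes. These were every Clec1b probe and the tested probes of Clec7a, Clec18a and Clec2i, so 1 gene is counted more than once. Clec2i differed by 0.63 (limma unadjusted p = 0.0237). Clec7a was at 6.18, 6.38, 6.25, 6.32 and 6.30 in replicates 1 to 5 of WT 7 Gy and at 6.91, 7.02, 6.66, 8.50 and 6.90 in Il10-/- 7 Gy. The groups did not overlap, WT 7 Gy spanned a narrow range, and replicate 4 of Il10-/- 7 Gy stood apart. The difference was 0.91 (SE 0.33, adjusted p = 0.395). The Clec1b probes differed by 0.71 to 0.93 (adjusted p of 0.336 to 0.396), and the platelet list was at 8.30 to 9.41 in WT 7 Gy and 9.42 to 10.37 in Il10-/- 7 Gy. After normexp background correction, Clec7a, Clec4d, Clec4e, Clec10a, Clec4g and 2 Clec1b probes changed sign in this comparison. The median of all probes tested was then -0.50, against 0.08 in the main fit. Clec4e differed by 0.71 (95% interval -0.01 to 1.44), with 3.91, 4.25, 4.31, 4.50 and 5.02 in WT 7 Gy and 4.52, 4.62, 5.15, 6.14 and 5.13 in Il10-/- 7 Gy, and the neutrophil list was at 5.77 to 6.42 and 6.74 to 8.96. Clec4d differed by 0.37 (95% interval -0.29 to 1.03) and Clec18a by -1.11 (SE 0.45, adjusted p = 0.417).

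**Figure D4:**
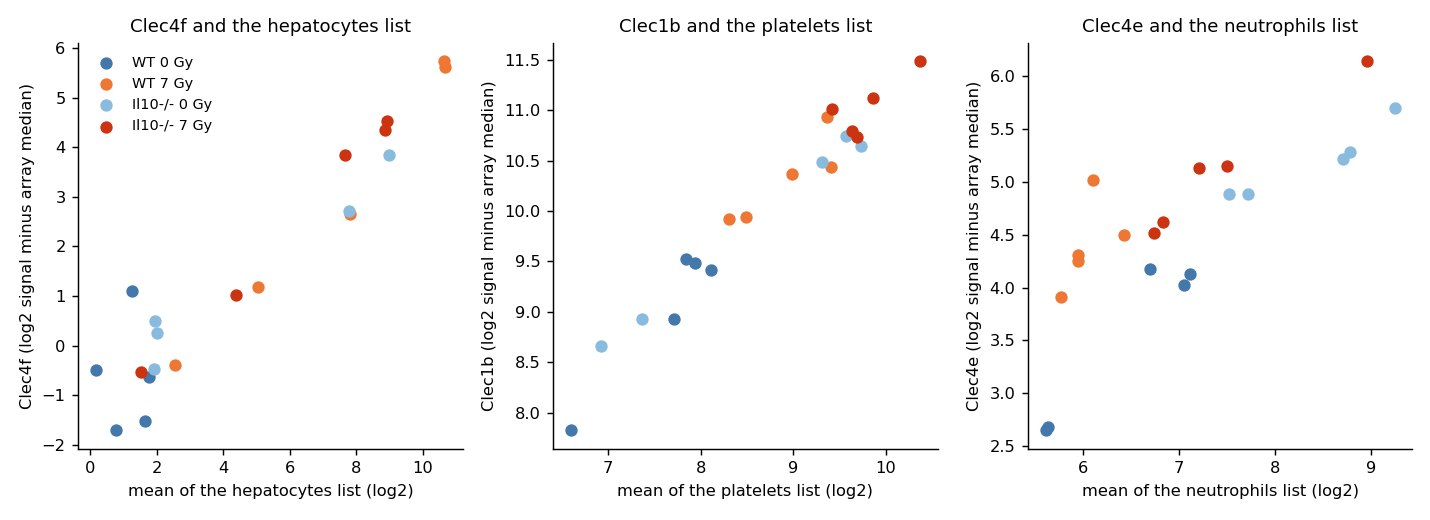
Log2 signal of Clec4f, Clec1b (probe A_55_P1962011) and Clec4e (vertical axes) against the mean log2 signal of the hepatocyte, platelet and neutrophil lists (horizontal axes), with 1 point per array and colours for the 4 groups. Clec4f is above 2 on the 8 arrays where the hepatocyte list exceeds 7, in 3 of the 4 groups, and the lowest Clec1b and Clec4e values lie on the arrays with the lowest platelet and neutrophil means. The points of a group share slides with those of the other groups.

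Probes of 1 gene did not always read alike. The 3 probes of Clec1b gave differences within 0.11 of each other in the mice labelled WT. Clec4b1, of the activating Dcar group, had a probe on chromosome 6 that was well above background on 9 arrays and a probe without a position that was so on 19. The latter was at 4.65, 4.57, 5.47, 6.35 and -0.06 in WT 0 Gy, where replicate 5 was not well above background, and neither probe reached an unadjusted p of 0.05 in any comparison. Of the 2 probes of Clec16a and Clec18a, 1 each passed the background filter. Clec16a, an intracellular protein of mitochondrial turnover, differed by 0.39 (95% interval -0.62 to 1.41) after irradiation in the mice labelled WT and by 0.21 (95% interval -0.38 to 0.80) in those labelled Il10-/-.

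Downstream of the receptors, 17 signalling genes were read with 1 probe each, and all 17 were tested. In the mice labelled WT, Malt1, a protease of the Card9 and Bcl10 complex, was the one called, and it fell by 1.96 on the log2 scale (SE 0.42, limma adjusted p = 0.00613), from 3.96 ± 0.77 to 2.00 ± 0.31 (SD, n = 5 each). In the mice labelled Il10-/- it fell by 1.63 (SE 0.22, adjusted p = 0.00042), and Plcg2, the phospholipase downstream of Syk, passed the 5% rate with -1.05 (SE 0.27, adjusted p = 0.0192). The other 16 and 15 genes, Syk, Card9 and Fcer1g among them, passed neither limit, and none was called in the comparisons between labels. Under each label 1 of the 17 was called, down, where 6.8% and 9.16% of all probes tested were called in the WT and Il10-/- responses. The B cell genes moved beside them: 6 of the 7 tested were called lower under both labels, the list being at 4.02 to 5.61 in WT 0 Gy, 1.65 to 2.41 in WT 7 Gy, 4.13 to 5.13 in Il10-/- 0 Gy and 1.46 to 2.11 in Il10-/- 7 Gy. Their part in the Malt1 and Plcg2 values was not tested. The medians of the list were 0.28 and -0.14 in the responses of the labels WT and Il10-/-.

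Of the 6 partner genes, Pdpn, which encodes podoplanin, the ligand of CLEC-2, rose by 3.30 (SE 0.60, adjusted p = 0.00228) in the mice labelled WT. It went from -0.75 ± 0.99 to 2.55 ± 1.25 (SD, n = 5 each) and was well above background on 1 of 5 WT 0 Gy arrays and on 5 of 5 WT 7 Gy arrays, so the size of the rise rests on signals near background. In the mice labelled Il10-/- it passed the 5% rate at 1.84 (SE 0.45, adjusted p = 0.0134), as did Klrb1, a killer-cell receptor of the Nkrp1 family, at 1.15 (SE 0.32, adjusted p = 0.0265). The fibroblast list, 6 genes with Col1a1 and Dcn among them, was at -0.35 to 0.54 in WT 0 Gy and 1.44 to 3.90 in WT 7 Gy, with Pdgfra well above background on no array, and its part in the Pdpn value was not tested. The other killer-cell receptors, Klrb1a, Klrb1b, Klrb1c and Klrb1f, passed neither limit in any comparison.

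Among 27 other C-type lectins, 15 were tested. Of all probes tested, 6.8% and 9.16% were called in the responses of the labels WT and Il10-/-, and 14.6% and 21.8% passed the 5% rate. Of the 15, 5 passed that rate upwards and 2 downwards under WT, and 1 upwards and 3 downwards under Il10-/-. Under the label WT, 3 were called higher: Asgr1, a subunit of the asialoglycoprotein receptor of hepatocytes, by 5.58 (SE 1.28, adjusted p = 0.00934) from a group in which 2 of 5 arrays were well above background, the phagocytic receptor Cd302 by 2.64 (SE 0.61, adjusted p = 0.0096), and the macrophage mannose receptor Mrc1 by 2.22 (SE 0.45, adjusted p = 0.00465). There were 2 called lower under both labels: Fcer2a, the low-affinity IgE receptor of B cells, by -5.09 (SE 0.48, adjusted p = 1.91e-05) in WT, where 1 of 5 irradiated arrays was well above background and the size therefore rests on signals near it, and at least 11.6-fold (adjusted p = 4.90e-06) in Il10-/-, where it was well above background on 0 irradiated arrays, and the B cell coreceptor Cd72 by -2.35 (SE 0.44, adjusted p = 0.00277) and -2.37 (SE 0.37, adjusted p = 0.00121). At the 5% rate alone, the mice labelled WT added Asgr2 with 3.25 (SE 0.96, adjusted p = 0.0324) and the platelet selectin Selp with 1.74 (SE 0.48, adjusted p = 0.0248). Those labelled Il10-/- added Mrc1 with 1.82 (SE 0.51, adjusted p = 0.025) and the activation marker Cd69 with -1.25 (SE 0.31, adjusted p = 0.0148). The genes named at the 5% rate alone, with Plcg2 and Klrb1 among them, were chosen after their values were seen. Fcer2a is also one of the B cell markers. None of the 15 was called between the labels at either dose.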

How the data were processed

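Whole-blood RNA, listed as 20 samples with 1 array each, was hybridised to single-colour Agilent mouse 4x44K v2 arrays, with groups and replicates as the sample titles give them. For each array the authors deposited the output of Agilent Feature Extraction (10.7 per the processing notes, 12.0.2.2 per the file headers), whose processed intensity is background-subtracted and detrended but not normalized between arrays. A second deposited table holds log2 values that differ from these by 1 constant per array, and served as an alternative.

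Spots marked as non-uniform were dropped, log2 intensities of repeated spots were averaged, and the array median over 39429 non-control probes was subtracted. Probes marked as outliers or as not significant over background on at least 25% of arrays were removed, which left 22997, as were those in which fewer than 20% of arrays differed by 1.5-fold from the probe median, which left 18587. Each comparison was fitted in limma 3.58.1 (R 4.3.3) on its own 10 arrays, and the interaction on all 20. Calls required p below 0.001 and a false discovery rate (Benjamini-Hochberg) under 10%, as in the class comparisons of the study, with p-values adjusted over all probes tested, and the 5% rate alone is given as well. The fitting code was checked on simulated data. Precision is limited by the 5 arrays per group.

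The members were all probes with Clec gene names. Members, marker lists and pathway lists were chosen with earlier results of these data known. Probes called, or past the 5% rate, were given on every array of the comparison in which they passed. The exception was Clec1b, given by its probe with the highest mean, A_55_P1962011, which did not pass. Pathway genes were named where called, by size of change. Pathway and marker genes were read with 1 probe each, the one with the highest mean among those past the background filter. A value for a marker list is the mean log2 signal of its genes on an array, described for 13 lists of which those beside a member's result are given. Alternatives were 4 other scalings (75th percentile, distance from replicate 3 of Il10-/- 0 Gy, quantile, the deposited log2 table), normexp background correction with an offset of 50, no filters, no change filter, the replicate number as a block, all groups in 1 fit, the 5% rate alone, and leaving out each array. Leaving out the 2 noisy arrays together, and averaging replicates 1 and 2, were added after seeing the data. Promoter sequence came from RefSeq (GRCm38.p6), and probe positions are mm9 as in the array files.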

Additional observations from a re-analysis of the deposited data

Results flagged for a closer look

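In all, 8 of 88 groups of 5 arrays, over the 22 probes that passed the background filter, held an array that stood apart from the other 4 by Dixon's test at 95%, and chance gives about 1 in 20 such groups. The noisy replicate 3 of Il10-/- 7 Gy gave 3 of them: Clec12b (A_55_P1963227) read 4.22 there against -1.67 to -0.33 on the other arrays of the group, Clec2e read 3.94 against -0.32 to 0.81, and Clec3b read 1.37 against 1.83 to 1.92. The noisy replicate 5 of WT 0 Gy gave 2: Clec16a read 1.68 against -0.80 to -0.14, and Clec4b1 (A_66_P138406) read -0.059 against 4.57 to 6.35. On arrays with repeated spots as close as on the rest, the other Clec4b1 probe (A_55_P1992530) read -2.10 on replicate 5 of Il10-/- 0 Gy against -0.41 to 0.05, and Clec4a3 read 3.93 on replicate 5 of Il10-/- 7 Gy against 3.15 to 3.29. Clec7a, the dectin-1 gene, read 8.50 on replicate 4 of Il10-/- 7 Gy against 6.66 to 7.02, and without that array its difference between the labels at 7 Gy was 0.59 (limma adjusted p = 0.599). The causes were not tested.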

How the results depend on the processing

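The count of Clec probes called between 7 Gy and 0 Gy in the mice labelled WT was 0, and it was 1 with 75th percentile scaling (Clec2i), 4 when scaled to the reference array, 2 after quantile normalization, 5 in the deposited table, 1 with the 2 noisy arrays left out, 2 with all groups in 1 fit (Clec4d, Clec2i), and 6 at the 5% rate alone. In the mice labelled Il10-/- it was 0, and it was 1 with 75th percentile scaling, the reference array, the deposited table and without the noisy arrays (Clec9a in each), 1 without filters (Clec11a, well above background on 1 array), 2 after quantile normalization (both Clec1b), and 2 at the 5% rate alone. Between labels at 0 Gy it was 1 (Clec4e) and became 0 with 75th percentile scaling, the reference array, quantile normalization, normexp, no filters, no change filter, the deposited table, the 5% rate alone, the noisy arrays left out, and replicates 1 and 2 averaged. Between labels at 7 Gy and in the interaction it was 0 throughout. With 1 array left out, these counts ran from 0 to 1 in both responses and between labels at 0 Gy, and from 0 to 0 in the others. Over all probes, the calls between labels at 0 Gy went from 157 to 43 with 75th percentile scaling, 77 with the reference array, 25 after quantile normalization and 0 after normexp. The median of all probes tested moved with the scaling from -0.02 to as low as -0.28 in the response of mice labelled WT, and in those labelled Il10-/- from -0.10 to as high as 0.19. After normexp it was 0.65 and -0.32 in these responses, 0.53 between labels at 0 Gy and -0.50 at 7 Gy, over 11433 probes.

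The replicate number, which marks a shared slide, was added as a block. Same-slide arrays of 2 groups had deviations that correlated by -0.66 to 0.68, and in no pair of groups were all 5 over 0.1, so the numbers were not taken to pair the samples. With the replicate block, 1 Clec probe was called in the response of mice labelled WT (Clec4f), 0 in that of mice labelled Il10-/-, 2 between labels at 0 Gy (Clec4e and Clec4f), and 0 at 7 Gy and in the interaction. Over all probes the calls between labels at 0 Gy went from 157 to 384.

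Through every alternative, 9 probe differences were followed, and none turned sign. Of their values, 145 stayed on their side of the call rule, 32 passed it and 19 lost it, all 19 of Clec4e. The differences other than that of Clec4e were followed because they passed the 5% rate in the main fit. That rate alone was among the alternatives, so each passed there by choice, and Clec10a and Clec3b passed nowhere else. Of 29 differences with an unadjusted p below 0.05, 3 turned sign under normexp, all between labels at 7 Gy: 2 Clec1b probes at -0.19 and -0.18 and Clec7a at -0.01. Normexp tested 14 Clec probes, without Clec9a and Clec3b. Signal over background limits the 18 probes that failed that filter, and Clec9a and Clec4f on some arrays.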
